A study of Homo sapiens with 6 samples.

Results

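This section describes 10 genes that mark motor columns and motor pools, measured in motor neurons derived from human embryonic stem cells. The genes were chosen by name, with earlier results of these data known. They were placed in 4 sets: limb column (FOXP1, ALDH1A2), axial column (MECOM, LHX3, LHX4), shared by columns (ISL1, ISL2, MNX1) and motor pool (ETV4, POU3F1). All 10 were found among the 57820 genes of the count table, each under 1 Ensembl identifier, and all 10 were among the 17803 genes that passed the filter on low counts. They are transcription factors, except ALDH1A2, which is an enzyme. The cells came from H9, a widely used embryonic stem cell line, with wild-type genotype. All cultures were motor neuron progenitors driven towards motor neurons with 0.01 µM retinoic acid (RA) and 0.1 µM SAG, an agonist of Hedgehog signalling. In 1 group, SMG, microgravity was simulated with a 2D clinostat, which turns the culture so that gravity has no fixed direction relative to the cells, and the other group, NG, was at normal gravity. Each group had 3 libraries. No label or header used here states how long the cells were turned. H9 is 1 line, and the labels do not say whether the 3 libraries of a group are separate cultures. The p-values therefore reflect the spread among these 6 libraries alone, which may be technical.

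Spinal motor neurons settle in columns according to what they innervate. Neurons of the medial motor column supply axial muscle and keep LHX3 and LHX4, whereas those of the lateral motor column supply limb muscle, switch LHX3 off, and express high FOXP1, a cofactor of HOX proteins, together with ALDH1A2, which makes retinoic acid. ISL1, ISL2 and MNX1 are homeodomain factors of motor neurons in most columns, and ISL1 binds together with LHX3 to turn on genes of acetylcholine transmission. Within a limb column, neurons for 1 muscle form a pool, and ETV4 (also called PEA3) and POU3F1 (also called SCIP) mark some of these pools.

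The regulatory sequence at the most upstream RefSeq start of FOXP1, ALDH1A2 and MECOM is shown because these genes had the largest differences between the groups. Each window runs from 250 bases before to 50 bases after the start, on the gene's strand, 5′ to 3′, in build GRCh38.p14. The windows lie at chr3:71583679-71583978 on the minus strand for FOXP1, at chr15:58065662-58065961 on the minus strand for ALDH1A2, and at chr3:169663663-169663962 on the minus strand for MECOM. The strand is RefSeq's: bases just after the start matched a GENCODE 29 transcript of the gene in the same direction for FOXP1 and ALDH1A2, and matched none for this MECOM window. Capitals mark TAAT, the core that homeodomains read, and ACGTG and GCGTG, forms of the core of the hypoxia response element, on either strand.
FOXP1: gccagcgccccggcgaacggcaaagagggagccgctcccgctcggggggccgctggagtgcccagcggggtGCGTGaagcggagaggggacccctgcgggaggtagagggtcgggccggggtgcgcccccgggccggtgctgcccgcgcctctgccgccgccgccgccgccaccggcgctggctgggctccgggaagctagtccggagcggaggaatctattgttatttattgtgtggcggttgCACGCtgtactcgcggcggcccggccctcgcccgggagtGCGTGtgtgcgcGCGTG
ALDH1A2: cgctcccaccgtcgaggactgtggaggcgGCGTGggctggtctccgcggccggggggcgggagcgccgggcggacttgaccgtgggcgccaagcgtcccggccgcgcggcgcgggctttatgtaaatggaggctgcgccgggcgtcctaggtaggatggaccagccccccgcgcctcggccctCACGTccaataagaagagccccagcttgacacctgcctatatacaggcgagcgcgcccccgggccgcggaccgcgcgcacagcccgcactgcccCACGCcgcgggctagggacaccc
MECOM: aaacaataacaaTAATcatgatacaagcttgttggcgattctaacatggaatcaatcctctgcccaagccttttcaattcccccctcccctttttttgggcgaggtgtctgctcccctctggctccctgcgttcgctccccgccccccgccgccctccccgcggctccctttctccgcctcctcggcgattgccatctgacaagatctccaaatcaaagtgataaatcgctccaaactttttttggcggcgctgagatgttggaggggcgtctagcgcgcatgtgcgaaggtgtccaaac
The FOXP1 window held GCGTG at 4 positions and TAAT at 0. The ALDH1A2 window held GCGTG at 2 positions, ACGTG at 1 and TAAT at 0, and the MECOM window held TAAT at 1 position and the other cores at 0. Of all 35116 RefSeq windows of 300 bases, 50.2% held TAAT, 36.5% GCGTG and 21.4% ACGTG, so each of these matches is common. FOXP1 has 6 windows in RefSeq, MECOM 3 and ALDH1A2 2, and counts per gene do not tell which start was used.

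Total counts ranged from 16329907 to 22685870 per library, and levels are given as CPM, each gene's count relative to the library's total, after scaling by the trimmed mean of M-values (TMM). Fold changes are on the log2 scale as SMG minus NG, with their SE, and n = 3 libraries per group throughout. The cells were a mixture: the neuronal gene DCX had a mean of 4990 CPM, and the proliferation gene MKI67 a mean of 304 CPM. The pluripotency genes POU5F1 and NANOG had means of 0.0741 and 0.0695 CPM. Libraries within a group differed by more than counting error: chi-square divided by its degrees of freedom was 1.6 for NG replicates 1 and 2, 3.24 and 3.38 for the NG pairs with replicate 3, and 2.04 to 2.93 for the SMG pairs. In bulk RNA, fewer cells of a type and less RNA per cell cannot be told apart.

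SMG was compared with NG for the RNA level of column and pool genes in the whole culture, not the identity of single neurons. Both limb column genes rose in SMG, FOXP1 by 62.5% and ALDH1A2 by 82.3%. Of the 3 axial column genes, MECOM fell by 24.4%, whereas LHX3 and LHX4 were called higher. Summed over the set, the limb genes had 128 to 139 CPM in NG and 216 to 227 in SMG. The axial genes summed to 211 to 215 CPM in NG and 210 to 215 in SMG. LHX3, LHX4, ISL1, MNX1 and POU3F1 were higher in SMG by 16.2% to 17.8%. ISL2 and ETV4 did not pass the test. Of the 10 genes, 7 were thus called higher and 1 lower by edgeR's quasi-likelihood test at an adjusted p of 0.05, where 17.3% of all tested genes were called higher and 18.5% lower (35.8% in either direction). With offsets for the length and GC content of transcripts, 4 were higher and 1 lower, beside 15.7% and 15.1% of all genes in that fit, and the calls of LHX3, MNX1 and POU3F1 ended. Among the 9463 tested genes with a mean of 10 to 200 CPM, a range set with the members' levels in view, 47.6% were called. The members' median log2 fold change was 0.23, beside -0.0002 over all tested genes. The groups did not overlap in 8 of the 10 genes, where they did not overlap in 46.3% of tested genes. In 7 of these 8, all SMG libraries were above all NG libraries, which held for 22.6% of tested genes. The members were chosen with earlier results of these data known, so setting these counts beside all genes is no test of the set.

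**Figure D1:**
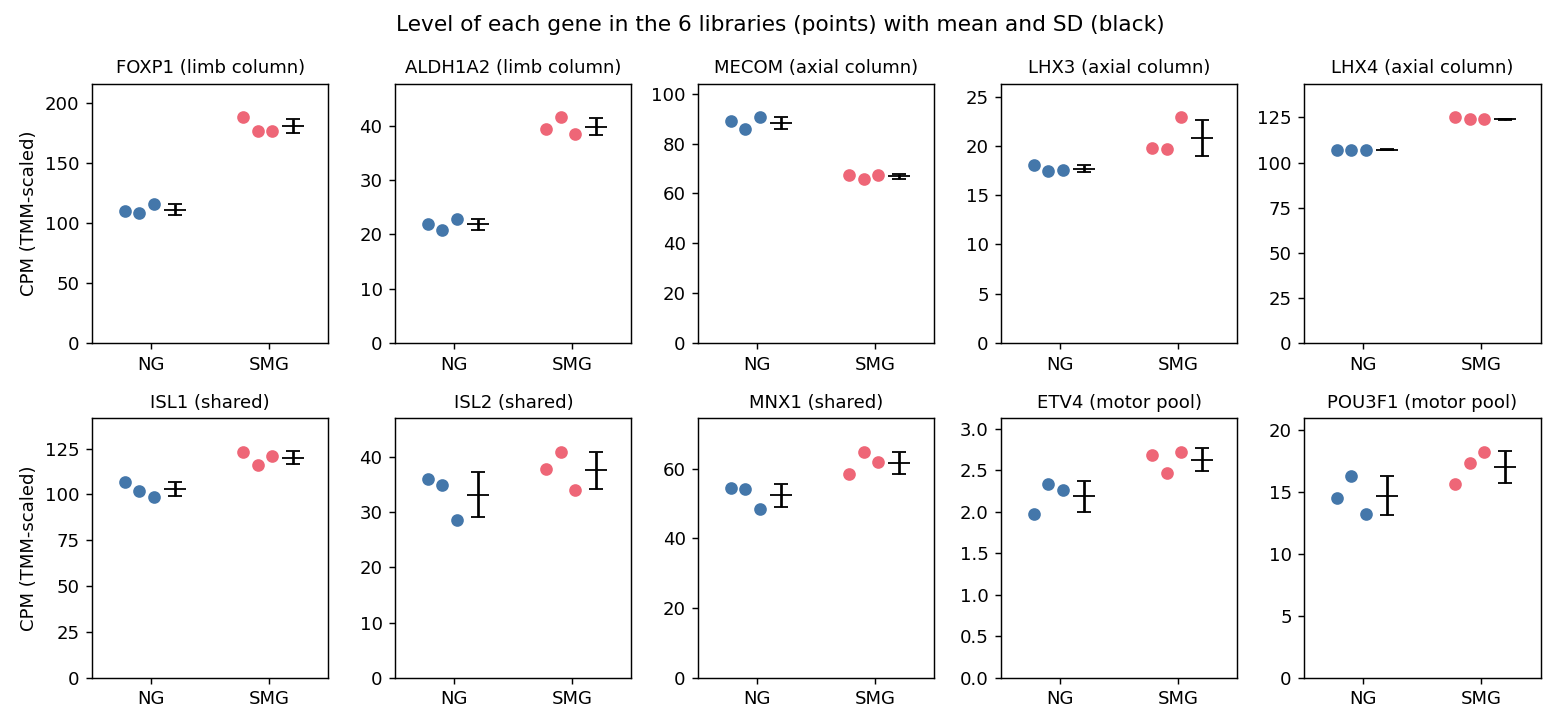
Level of each of the 10 genes in CPM (vertical axis, from 0) in the 3 NG libraries (blue points) and the 3 SMG libraries (red points), with the group mean and SD in black. The groups stand apart most in FOXP1, ALDH1A2 and MECOM and overlap in ISL2 and POU3F1.

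FOXP1 (ENSG00000114861), the HOX cofactor that sets limb column fate, had 110, 108 and 116 CPM in NG replicates 1, 2 and 3 and 188, 177 and 177 CPM in SMG. Every SMG library lay above every NG library, with a gap far wider than the spread within either group. The means were 111 ± 4.42 CPM in NG and 181 ± 6.04 in SMG (SD), a log2 fold change of 0.70 ± 0.04 (edgeR adjusted p = 1.36e-14). Of the 9463 genes with 10 to 200 CPM, 8 had a larger log2 fold change. By the annotation of GENCODE 29, 6.92% of the exonic bases of FOXP1 are shared with AC097634.4, a gene model on the same strand for which no count was used here.

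ALDH1A2 (ENSG00000128918), which oxidises retinaldehyde to retinoic acid, had 21.9, 20.8 and 22.8 CPM in NG and 39.4, 41.5 and 38.5 CPM in SMG. The groups were again far apart and each was tight. The means were 21.8 ± 1.02 and 39.8 ± 1.54 CPM (SD), a log2 fold change of 0.87 ± 0.06 (edgeR adjusted p = 2.53e-12). In the range of 10 to 200 CPM, 1 of 9463 genes had a larger log2 fold change. That gene, ENSGR0000002586, is named after its value was seen, and at 1.18 ± 1.39 its SE exceeded its change. FOXP1 differed by 0.67 to 0.74 and ALDH1A2 by 0.83 to 0.90 over the 16 other settings tried, among them a fit corrected for the length and GC content of transcripts, and both passed in all 16.

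MECOM (ENSG00000085276), a zinc finger factor found in the medial motor column, went the other way. It had 88.9, 85.9 and 90.5 CPM in NG and 67.3, 65.8 and 67.4 CPM in SMG. All SMG libraries lay below all NG libraries. The means were 88.4 ± 2.34 and 66.8 ± 0.91 CPM (SD), a log2 fold change of -0.40 ± 0.04 (edgeR adjusted p = 9.61e-09), and 2.24% of the genes with 10 to 200 CPM had a lower one. Of all tested genes, 13.9% had a larger absolute log2 fold change. MECOM passed in all 16 other settings, from -0.42 to -0.37.

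The other axial genes, the LIM-homeodomain paralogs LHX3 and LHX4, did not move with MECOM. LHX4 (ENSG00000121454), which acts with LHX3 in new motor neurons, had 107 CPM in each NG library and 125, 124 and 124 CPM in SMG. The groups did not overlap, and the log2 fold change was 0.22 ± 0.04 (edgeR adjusted p = 2.01e-05). In GENCODE 29, 30.8% of the exonic bases of LHX4 overlap exons of ACBD6 on the opposite strand, and no source used here says whether counting used strand. ACBD6 went from 14.7 ± 0.975 to 20.9 ± 0.367 CPM (log2 fold change 0.50 ± 0.07, edgeR adjusted p = 2.99e-06). Its part in the LHX4 value was not tested.

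LHX3 (ENSG00000107187), the factor that pairs with ISL1 in medial motor neurons, had 18.1, 17.5 and 17.6 CPM in NG and 19.8, 19.7 and 22.9 CPM in SMG. All SMG libraries were above NG, and SMG replicate 3 was the highest. The log2 fold change was 0.23 ± 0.07 (edgeR adjusted p = 0.0139). Without SMG replicate 3 it was 0.15 and no longer passed (adjusted p = 0.16).

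Among the genes shared by columns, ISL1 (ENSG00000016082), a LIM-homeodomain factor needed to make motor neurons, had 107, 102 and 98.7 CPM in NG and 123, 116 and 121 CPM in SMG. The groups did not overlap, and the log2 fold change was 0.22 ± 0.04 (edgeR adjusted p = 5.18e-05). The divergent non-coding RNA beside it, ISL1-DT, was at 38.7, 38.2 and 39 CPM in NG and 40.3, 42.3 and 35.8 CPM in SMG, so its groups overlapped, and it did not pass (0.03, edgeR adjusted p = 0.733). The difference between the 2 changes was not tested.

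MNX1 (ENSG00000130675), also called HB9, which holds interneuron genes off in motor neurons, had 54.5, 54.1 and 48.4 CPM in NG and 58.4, 64.7 and 62 CPM in SMG. The groups did not overlap, and the log2 fold change was 0.24 ± 0.05 (edgeR adjusted p = 6.03e-04), or 0.05 with the length and GC offsets (adjusted p = 0.429). ISL2 (ENSG00000159556), the close relative of ISL1, had 36.1, 35 and 28.6 CPM in NG and 37.8, 40.9 and 34.1 CPM in SMG. These values overlapped, the log2 fold change was 0.17 ± 0.09 with a 95% interval from -0.01 to 0.36, and it did not pass (edgeR adjusted p = 0.141). ISL2 was the most variable member, with a coefficient of variation of 12.2% in NG where counting error alone gives 4.08%. It passed in 4 of the 16 other settings: with no filter, with the replicate block, without NG replicate 1 (0.24, adjusted p = 0.0473) and without SMG replicate 3 (0.24, adjusted p = 0.032). It was at 0.08 without NG replicate 3, at 0.11 without SMG replicate 2 and at 0.09 with offsets for transcript length and GC content. Over all 16 the adjusted p ran from 0.0102 to 0.376.

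By CPM the pool genes were the least abundant members. POU3F1 (ENSG00000185668), a POU factor of some forelimb pools, had 14.5, 16.3 and 13.2 CPM in NG and 15.6, 17.3 and 18.2 CPM in SMG. The groups overlapped, and the log2 fold change of 0.22 ± 0.08 passed (edgeR adjusted p = 0.0379). That call ended in 7 of the 16 other settings, among them DESeq2 (adjusted p = 0.0986) and the fits without NG replicate 1 (0.109), NG replicate 3 (0.144), SMG replicate 2 (0.106) or SMG replicate 3 (0.199). ETV4 (ENSG00000175832), an ETS factor induced in limb pools by GDNF from the target, had 42, 38 and 37 reads in NG and 57, 55 and 62 in SMG. This was 1.98, 2.34 and 2.26 CPM against 2.69, 2.47 and 2.72 CPM. All SMG libraries were above NG, but at this depth the log2 fold change of 0.27 ± 0.17 had a 95% interval from -0.07 to 0.61 and did not pass (edgeR adjusted p = 0.219).

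The members were also split by the base composition of their transcripts. The 5 members whose longest transcript had over 60% GC (POU3F1 69.9%, MNX1 68.6%, LHX3 63.8%, ISL2 61.5%, ETV4 60.8%) had 3 calls as tested and 0 in a fit with offsets for each library's smooth dependence on the length and GC content of transcripts. The 5 below 52% (ALDH1A2 51.3%, LHX4 48.4%, ISL1 45.6%, MECOM 43.3%, FOXP1 40.3%) had 5 calls in either fit. With these offsets, MNX1 was at 0.05 (edgeR adjusted p = 0.429), LHX3 at 0.06 (0.537) and POU3F1 at 0.02 (0.889), while ISL1 was at 0.31 (3.06e-08) and LHX4 at 0.19 (1.13e-05). FOXP1 was then at 0.74, ALDH1A2 at 0.83 and MECOM at -0.37. The members' median in that fit was 0.13. NG replicate 3 was the lowest NG library for ISL1, ISL2, MNX1 and POU3F1 and the highest for FOXP1, ALDH1A2 and MECOM. Without it 6 members were higher and 1 lower.

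**Figure D2:**
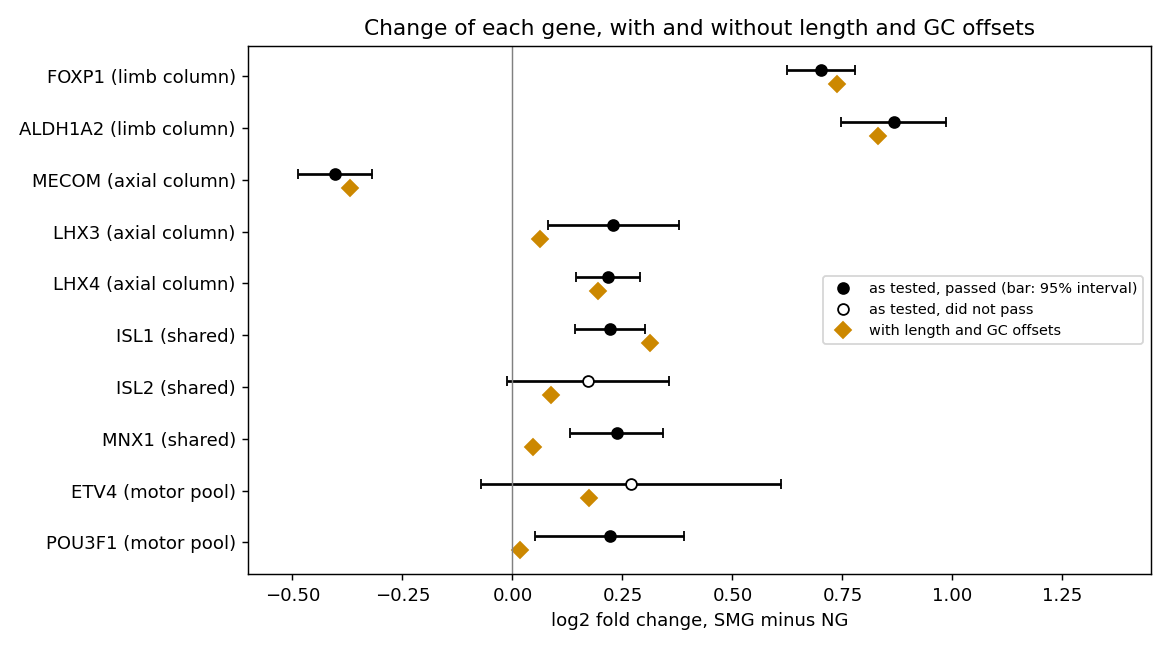
Log2 fold change of each gene, SMG minus NG (horizontal axis), with its 95% interval, filled where it passed edgeR's test and open where it did not; diamonds give the value with offsets for length and GC content. The diamonds of FOXP1, ALDH1A2 and MECOM stay near 0.74, 0.83 and -0.37, and those of MNX1, LHX3 and POU3F1 lie at 0.05, 0.06 and 0.02.

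Ratios of 2 members within a library do not depend on how libraries are scaled. They are ratios of CPM, with no correction for transcript length, GC content or the mixture of cells. With the length and GC offsets the log2 fold change of LHX3 was 0.06 and that of ISL1 0.31, against 0.23 and 0.22 as tested. The ratios below carry no such offsets. For FOXP1 to MECOM the NG libraries had log2 ratios of 0.30, 0.33 and 0.36, and the SMG libraries 1.48, 1.43 and 1.39. FOXP1 thus had 1.26 times the CPM of MECOM in NG and 2.7 times in SMG, and the mean log2 ratios were 0.33 ± 0.03 and 1.43 ± 0.04 (SD). Of FOXP1 to LHX3 the log2 ratio was 2.64 ± 0.06 in NG and 3.12 ± 0.15 in SMG (SD), and of FOXP1 to ISL1 it was 0.12 ± 0.10 and 0.59 ± 0.04. Both were higher in every SMG library than in any NG library.

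ALDH1A2 relative to ISL1 was at -2.23 ± 0.10 in NG and -1.59 ± 0.10 in SMG on the log2 scale, and MECOM relative to ISL1 was lower in SMG, at -0.21 ± 0.08 against -0.84 ± 0.03. ISL1 serves here as a gene shared by motor neurons of most columns. Each of these 5 ratios separated the groups fully and had an exact two-sided permutation p of 0.1, the smallest that 3 against 3 libraries allow, or 0.14 adjusted over the 7 ratios computed. Each of the 5 holds FOXP1, ALDH1A2 or MECOM, which separated the groups on their own in the same libraries. The separation of these ratios therefore adds no separate evidence. The paralog ratios overlapped between groups. LHX4 to LHX3 was at 2.59 ± 0.03 in NG and 2.58 ± 0.13 in SMG (exact permutation p = 1), and ISL2 to ISL1 at -1.63 ± 0.13 and -1.67 ± 0.16 (exact permutation p = 0.9).

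**Figure D3:**
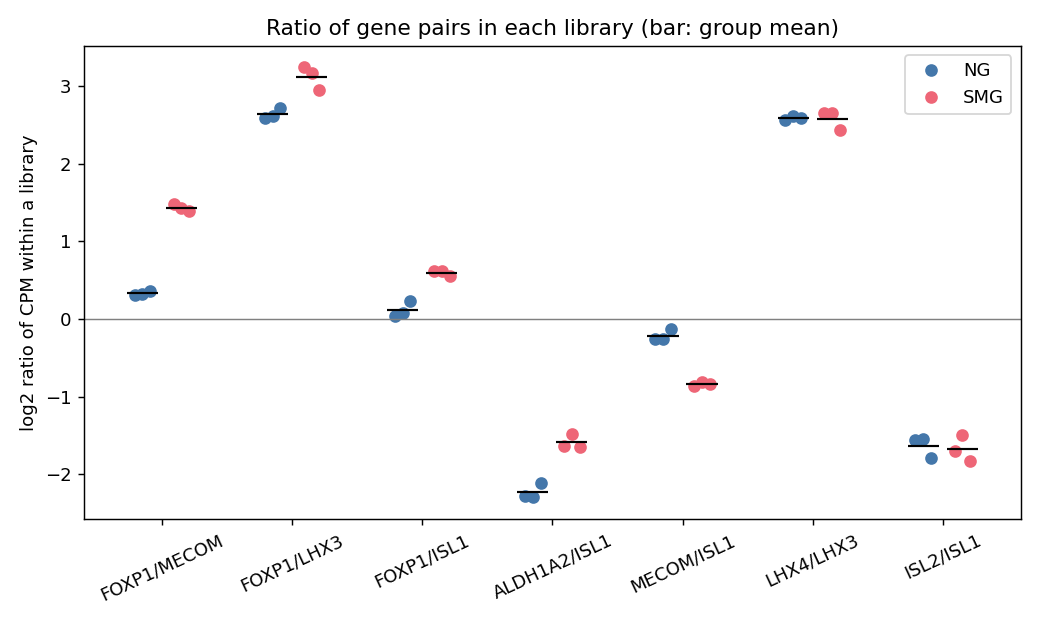
Log2 ratio of the CPM of 2 genes in each library (vertical axis) for 7 pairs, with NG libraries in blue, SMG libraries in red and bars at the group means. The groups are apart in the 5 pairs with FOXP1, ALDH1A2 or MECOM, each of which also separated them alone, and overlap for LHX4/LHX3 and ISL2/ISL1.

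Levels of different genes were compared per length, as CPM per kilobase of the longest transcript in GENCODE 29. ISL1 was the highest member, at 40.2 to 49.9 over the 6 libraries, followed by MNX1 at 22.3 to 29.8. LHX4 (18.3 to 21.4) and ISL2 (15.2 to 21.7) overlapped each other. ETV4, at 0.815 to 1.12, was lower than every other member in all libraries.

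In between, the order per longest transcript depended on the group. In NG, MECOM stood above FOXP1 with no overlap, at 15.5, 15 and 15.8 against 12.2, 12 and 12.9 CPM per kilobase. In SMG FOXP1 stood above MECOM, at 20.9, 19.7 and 19.7 against 11.7, 11.5 and 11.8. This turn of the order rests on the length used: per median transcript length FOXP1 was the higher gene in NG too, with means of 69.7 against 57.7, and in SMG, with 113 against 43.6. ALDH1A2 was below LHX3 and POU3F1 in NG, with a mean of 5.32 against 5.74 and 6.71 CPM per kilobase, and above both in SMG, with 9.71 against 6.73 and 7.8. Per median transcript length ALDH1A2 was above both in NG as well, with a mean of 38.1 against 6.93 and 6.71. By that length LHX4 came first of all members, and FOXP1 stood at 91.5 beside 91.7 for ISL1 as means over both groups. By group, FOXP1 was below ISL1 in NG (69.7 against 84.6) and above it in SMG (113 against 98.8). Per longest transcript ISL1 was above FOXP1 in both groups.

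**Figure D4:**
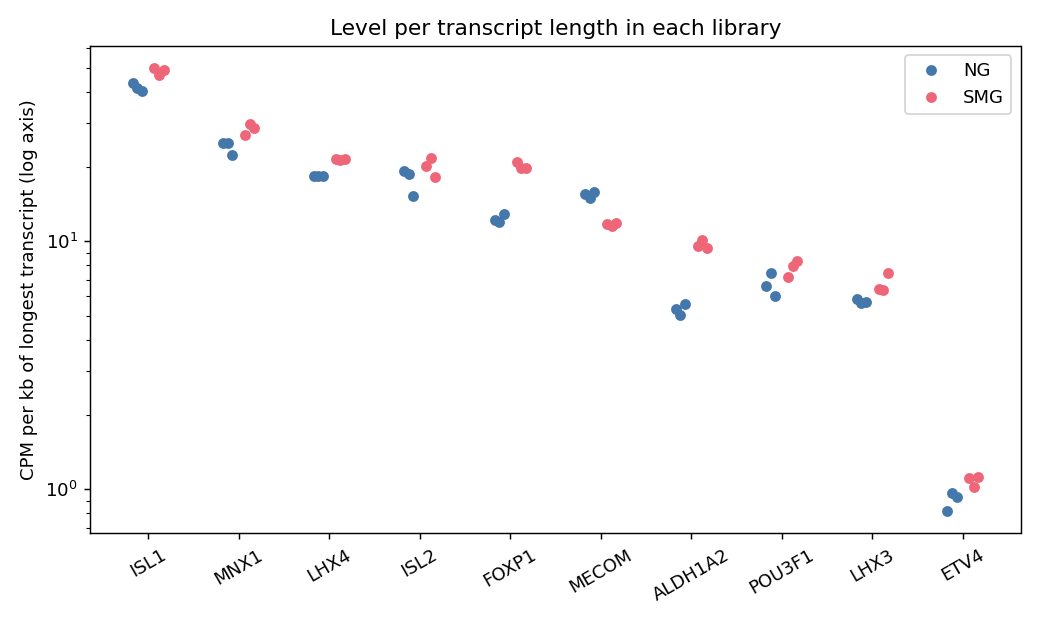
CPM per kilobase of the longest transcript (vertical log axis) for the 10 genes in each NG library (blue) and SMG library (red), ordered by the mean over all libraries. By this length FOXP1 and MECOM change places between the groups, which they do not per median transcript length, and ETV4 lies lowest, near 1.

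Genes that work with these factors were read from lists. Of 13 family relatives, 9 were tested, and 2 were higher and 4 lower (median 0.01), or 2 higher and 6 lower with the length and GC offsets. PRDM16, the closest relative of MECOM, rose from 3.21 to 5.47 CPM (0.76 ± 0.13, edgeR adjusted p = 2.52e-05), opposite to MECOM. FOXP2, a relative of FOXP1, fell from 9.2 ± 0.82 to 6.69 ± 0.255 CPM (-0.47 ± 0.10, edgeR adjusted p = 5.88e-04). ETV1, a pool gene of the ETV4 family, fell from 62.2 to 51.7 CPM (-0.27 ± 0.05), and ALDH1A1 and ALDH1A3, which also make retinoic acid, had means of 0.0672 and 0.0351 CPM and were not tested.

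Cofactors that link LIM-homeodomain proteins to one another or compete for them had 2 higher and 4 lower of 9 tested, with a median of -0.06, or 2 higher and 2 lower with the offsets. LDB2 fell from 12.1 to 9.9 CPM (-0.30 ± 0.09, edgeR adjusted p = 0.00814), a call that ended without NG replicate 1 (adjusted p = 0.0538) and with the length and GC offsets (0.121). SSBP2, which stabilises LDB proteins, fell from 145 ± 12 to 124 ± 0.282 CPM (-0.22 ± 0.04). LDB1, the main bridging cofactor, had a mean of 207 CPM and did not pass (edgeR adjusted p = 0.0905).

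Other transcription factors of columns and pools had 7 higher and 1 lower of 18 tested (median 0.09). BCL11A, a zinc finger factor, rose from 18.2 to 30.1 CPM (0.72 ± 0.07, edgeR adjusted p = 1.23e-09), a change close to that of FOXP1. NR2F2, an orphan nuclear receptor, rose from 396 to 537 CPM (0.44 ± 0.03).

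HOX proteins set which columns form at each level of the cord, and FOXP1 acts with them. Of 15 HOX genes listed, 10 were tested, with 4 higher and 1 lower (median 0.14). HOXC6, tied to brachial limb columns, rose from 155 ± 2.84 to 171 ± 3.72 CPM (0.14 ± 0.03, edgeR adjusted p = 0.00223). HOXC9, which opposes limb column fate at thoracic levels, rose from 27 to 34.4 CPM (0.35 ± 0.06, edgeR adjusted p = 2.07e-05), and HOXA9 fell from 18.8 to 15.1 CPM (-0.32 ± 0.08, edgeR adjusted p = 0.00197). The lumbar gene HOXC10 had a mean of 0.158 CPM, and HOXD10, HOXC11 and HOXD11 had 0 reads in all 6 libraries.

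Surface molecules by which columns and pools steer their axons had 6 higher and 2 lower of 17 tested (median 0.05). SEMA3E, a semaphorin of some pools, rose from 3.23 to 5.67 CPM (0.80 ± 0.13, edgeR adjusted p = 3.28e-05), and the semaphorin receptor NRP1 rose from 127 to 187 CPM (0.57 ± 0.03). FGFR1, the receptor by which medial column axons respond to axial targets, had a mean of 142 CPM and did not pass (edgeR adjusted p = 0.616). EPHA4, an ephrin receptor of lateral limb neurons, was called lower, at 0.919-fold (edgeR adjusted p = 0.0069).

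Of 6 genes of acetylcholine transmission and motor neuron structure, 3 were higher and 0 lower (median 0.19), or 2 higher and 0 lower with the offsets (median 0.07). SLC18A3, the vesicular acetylcholine transporter, rose by 0.66 ± 0.05, and ACHE, which breaks acetylcholine down, by 0.26 ± 0.07 from 19.4 ± 1.89 to 23.3 ± 0.575 CPM (edgeR adjusted p = 0.00383), or 0.08 with the length and GC offsets (adjusted p = 0.324). CHAT, also among the 6, went from 30.6 to 32.4 CPM with overlapping groups and did not pass (0.08 ± 0.06, edgeR adjusted p = 0.324). Progenitor genes had 1 higher and 3 lower of 9 tested (median -0.08), or 0 higher and 4 lower with the offsets. NEUROG2, which drives progenitors to become neurons, fell from 87.7 to 72.3 CPM (-0.28 ± 0.04, edgeR adjusted p = 6.65e-06). NKX2-2, of the neighbouring p3 domain, was called higher at 0.38 ± 0.14 (edgeR adjusted p = 0.0359), and that call ended in 9 of 16 other settings.

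**Figure D5:**
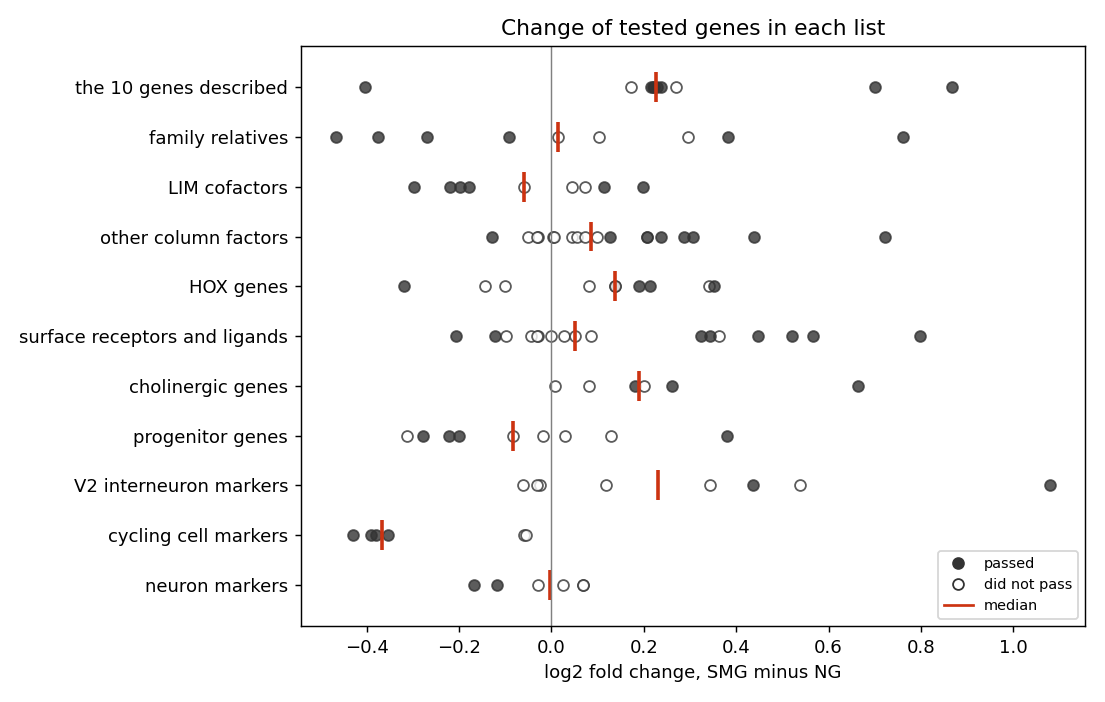
Log2 fold change, SMG minus NG (horizontal axis), of each tested gene in 11 lists, filled where it passed edgeR's test, with the list's median in red. The medians run from -0.37 for cycling cell markers to 0.23 for the 10 genes described and for V2 interneuron markers.

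Several members are also used outside motor neurons, so markers of those cells were summed in each library. LHX3 and LHX4 are also expressed in V2 interneurons. The 8 V2 markers summed to 81.9 to 95.4 CPM in NG and 88.5 to 96.9 in SMG. Of the 8, 2 were called higher. They were VSX1 (0.44 ± 0.16, edgeR adjusted p = 0.0349, a call that ended in 7 of 16 other settings) and GATA2, of the inhibitory V2b class, which went from 0.479 to 1.03 CPM (1.08 ± 0.33, edgeR adjusted p = 0.0114). The GATA2 call ended without SMG replicate 1 (adjusted p = 0.052) and without SMG replicate 2 (0.0755), among 14 other settings that gave it an adjusted p. Over the 8 V2 markers, DESeq2 called 0, and the fit with length and GC offsets called 2 higher and 1 lower. The part of V2 cells in the LHX3 and LHX4 values was not tested. ISL1 is also expressed in sensory and dI3 neurons, whose 6 markers summed to 4.51 to 5.61 CPM in NG and 5.24 to 6.39 in SMG, with 0 called by edgeR (0 of 3 tested; 1 had an unadjusted p under 0.05). POU4F1, which defines sensory neurons, had a mean of 2.23 CPM.

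Mesenchyme, which can express ALDH1A2, was low by its 9 markers. They summed to 4.39 to 4.74 CPM in NG and 3.91 to 4.42 in SMG, and COL1A1 was highest with a mean of 1.54 CPM, followed by TWIST1 with 0.943 CPM. Of the 4 tested, 0 were called by edgeR, and 0 had an unadjusted p under 0.05. Markers of branchial and visceral motor neurons summed to 12.4 to 14 CPM in NG and 14.8 to 15.5 in SMG, nearly all from RGS4. The 5 endothelial markers summed to 1.65 to 1.85 CPM in NG and 1.17 to 1.51 in SMG, with ERG at 0 in all libraries. KDR was called lower (-0.82 ± 0.32, edgeR adjusted p = 0.0419), and 7 of the 14 other settings that gave it an adjusted p ended that call.

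Of 6 cycling cell markers, 4 were lower in SMG and 0 higher (median -0.37), and the 6 summed to 1120 to 1170 CPM in NG and 941 to 961 in SMG. As tested, MKI67 (310 to 298 CPM, -0.06, edgeR adjusted p = 0.184) and AURKB (27.4 to 26.3 CPM, -0.05, edgeR adjusted p = 0.499) did not pass. With the length and GC offsets 5 of 6 were lower and the median was -0.21. BUB1, a mitotic checkpoint kinase, fell from 69.9 to 51.9 CPM (-0.43 ± 0.05), and CDK1 from 85.5 to 65.3 CPM (-0.39 ± 0.04, or -0.21 with the offsets). Neuron markers had 2 lower and 0 higher of 6, a split that turned to 0 lower and 2 higher with the length and GC offsets, with a median of 0.00 and sums of 8460 to 9110 CPM in NG and 8540 to 8720 in SMG. ELAVL4, an RNA-binding protein of neurons, was lower at -0.17 ± 0.03, or -0.06 with the length and GC offsets (adjusted p = 0.0894). STMN2 was lower at -0.12 ± 0.03, or 0.01 with the offsets (adjusted p = 0.711). Glial markers had 1 lower and 0 higher of 2 tested, or 0 lower and 0 higher with the offsets. Pluripotent cell markers had 1 lower of 2 tested, LIN28A, at -0.17 ± 0.05. That call ended when SMG replicate 1 was left out (-0.11, edgeR adjusted p = 0.13). The sums of these markers were 83.5 to 89.5 CPM in NG and 74.1 to 81.1 in SMG, nearly all from LIN28A and DPPA4. DPPA4 did not pass (edgeR adjusted p = 0.401). The part of a changed share of cycling cells in the members' values was not tested.

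The genes whose profile over the 6 libraries was nearest to a member were found by the root mean square distance between centred log2 CPM, over 10204 genes with a symbol and a mean of at least 10 CPM. For FOXP1 these were FKBP11 (0.0456), EME2 (0.0546) and MFAP3L (0.0556). For ALDH1A2 they were TACR1 (0.0737), the non-coding APPAT (0.0814) and FOXP1 itself (0.0959). For MECOM they were TMEM38B (0.0158), PCDH18 (0.0177) and SKAP2 (0.0216). The distances rest on 6 libraries in 2 groups, so a gene with a like difference between the groups is near by construction.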

How the data were processed

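The authors deposited 1 table of raw integer counts, with 1 row per Ensembl gene. The submitters' processing notes name hg19, featureCounts, HISAT2, SAMtools and DESeq2, without versions, and the libraries were made with an mRNA kit, per the labels' protocols. Symbols were found for 52338 of 57820 genes. Lengths, GC content and exon overlap came from GENCODE 29, which uses another build, and promoter windows from RefSeq on GRCh38.p14 for 9 of 10 members.

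Columns were matched to samples by title. Genes were filtered with filterByExpr, scaled by TMM and tested with edgeR's quasi-likelihood test (robust), with Benjamini-Hochberg adjustment over 17803 genes and a threshold of 0.05. Log2 CPM for ratios and distances used a prior count of 2. Ratios were tested by exact permutation of the libraries. The scripts were tested on simulated data. Alternatives were DESeq2, limma-voom, other scaling, other filters (none, or 1 CPM in 3 samples), a replicate block, natural spline offsets for length and GC content, and each library left out. The members and lists were chosen with earlier results of these data known. Named from each list were the 2 called genes of largest change with a mean of at least 2 CPM, or the 2 most abundant where none was called. ETV1, HOXC6, HOXC10, FGFR1, EPHA4, LDB1, ALDH1A1, ALDH1A3, CHAT, DPPA4, DCX, MKI67, AURKB, POU5F1, NANOG, GATA2, KDR and the HOX genes at 0 were added after their values were seen. Some genes that this rule names are not reported here. DESeq2 was version 1.42.0, limma 3.58.1 and edgeR 4.0.16, run in R 4.3.3.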

Additional observations from a re-analysis of the deposited data

How the results depend on the processing

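FOXP1, ALDH1A2, MECOM, LHX4 and ISL1 kept their direction and passed in all 16 alternatives. The count of members called higher was 4 with the length and GC offsets, and 4 with that offset and the replicate block together, against 7 as tested, and 6 to 8 in the other 14; in the fit without the offset the replicate block gave 8, as ISL2 then passed (edgeR adjusted p = 0.016). Same-numbered libraries did not deviate together (correlations of -0.059, 0.044 and -0.057 over 10424 genes), so the numbers were not taken as pairs. With each library left out in turn, the difference in log2 ratio ran from -0.0457 to 0.0646 for LHX4/LHX3 and from -0.1293 to 0.033 for ISL2/ISL1. None of the 7 ratios could reach 0.05, since the smallest exact permutation p is 0.1. ISL1-DT ran from -0.0245 (without SMG replicate 2) to 0.0942, and STMN2 at 0.0137 with the length and GC offset, with or without the block. Per median transcript length the levels averaged over both groups, in CPM per kilobase, were 160 for LHX4, 91.7 for ISL1, 91.5 for FOXP1, 65.8 for MNX1, 53.8 for ALDH1A2, 50.6 for MECOM, 24.5 for ISL2, 7.53 for LHX3 and 1.48 for ETV4. Depth limits ETV4, with 37 to 62 reads a library.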
